A study of Mus musculus with 2 samples.

Results

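The immediate early genes followed here were Fos, Fosb, Jun, Junb, Jund, Egr1, Atf3, Ier2, Dusp1 and Nr4a1. They were taken by symbol, and all 10 were found among the 31053 genes of the count matrices. Each had its own row and passed the minimum of 100 UMIs (unique molecular identifiers, 1 for each captured RNA molecule) over both libraries that 10719 genes passed. The organoids were grown from the bladder urothelium of wild-type (WT) C57BL/6 mice aged 8 to 10 weeks. Proliferative organoids (P, NMU-O-P) were kept in complete medium with LY2157299 (which blocks the TGF-β receptor kinase), EGF, Noggin, RSPO1 and WNT3A. Differentiated organoids (D, NMU-O-D) were, per the study's methods, first grown in that medium and then kept without these additions. Each condition was measured once, as 1 droplet 3′ library of 10000 loaded cells after enzymatic dissociation of the organoids. With 1 library a condition there is no replicate spread, so no p-value is given, and every interval is a 95% interval of counting error only.

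Immediate early genes are transcribed within minutes of a stimulus, without the need for new protein synthesis. MAP kinase signalling reaches their promoters through serum response factor with its ETS partners and through CREB, which binds the cyclic AMP response element (CRE). Fos and Jun proteins pair through their leucine zippers to form AP-1, EGR1 is a zinc finger factor, NR4A1 is an orphan nuclear receptor, and DUSP1 is a phosphatase that switches MAP kinases off. In stratified epithelia AP-1 genes are known both for responses to growth factors and stress and for the control of differentiation genes.

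RefSeq promoter windows of 8 members, all but Egr1 and Ier2, were used, each read as the 250 bases before the RefSeq transcription start in GRCm38.p6. Those of Fos, Fosb, Atf3, Dusp1 and Nr4a1 are shown because these members span the range of differences between the libraries, from none for Fosb to the largest for Atf3. Capitals mark the core of the CRE, TGACG, read on either strand. The windows run 5′ to 3′ on the strand of the gene, from chr12:85473640-85473889 for Fos (plus strand), chr7:19310046-19310295 for Fosb (minus strand), chr1:191183334-191183583 for Atf3 (minus strand), chr17:26508473-26508722 for Dusp1 (minus strand) and chr15:101266596-101266845 for Nr4a1 (plus strand).
Fos: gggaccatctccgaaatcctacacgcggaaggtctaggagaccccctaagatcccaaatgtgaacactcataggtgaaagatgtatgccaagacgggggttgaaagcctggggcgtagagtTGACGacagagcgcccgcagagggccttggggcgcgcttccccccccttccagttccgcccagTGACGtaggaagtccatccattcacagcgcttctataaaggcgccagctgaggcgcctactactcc
Fosb: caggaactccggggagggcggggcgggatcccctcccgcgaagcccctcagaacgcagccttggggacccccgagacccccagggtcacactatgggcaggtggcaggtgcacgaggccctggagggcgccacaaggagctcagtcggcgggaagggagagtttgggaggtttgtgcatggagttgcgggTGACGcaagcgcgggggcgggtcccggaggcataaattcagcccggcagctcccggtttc
Atf3: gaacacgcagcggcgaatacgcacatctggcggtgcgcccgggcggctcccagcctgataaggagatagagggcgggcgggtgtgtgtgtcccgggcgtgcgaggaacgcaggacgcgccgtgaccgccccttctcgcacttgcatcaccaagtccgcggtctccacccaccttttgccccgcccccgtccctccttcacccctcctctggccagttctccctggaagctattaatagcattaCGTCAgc
Dusp1: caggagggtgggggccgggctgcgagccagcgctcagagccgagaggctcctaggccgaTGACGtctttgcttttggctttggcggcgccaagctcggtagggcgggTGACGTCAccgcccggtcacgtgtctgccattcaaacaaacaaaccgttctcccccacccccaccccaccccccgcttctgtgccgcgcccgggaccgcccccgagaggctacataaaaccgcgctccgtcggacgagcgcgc
Nr4a1: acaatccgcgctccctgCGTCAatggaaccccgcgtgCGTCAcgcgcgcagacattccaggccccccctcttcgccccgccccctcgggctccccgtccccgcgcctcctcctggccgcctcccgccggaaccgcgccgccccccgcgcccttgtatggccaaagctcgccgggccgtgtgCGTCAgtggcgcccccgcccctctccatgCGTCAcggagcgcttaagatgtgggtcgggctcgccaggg

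The core TGACG was present in 6 of the 8 member windows, against 17.8% of 32851 RefSeq promoter windows of the same length. Dusp1 held the only full CRE, TGACGTCA, which 1.55% of all windows hold and which overlaps 2 of its 3 cores. The Nr4a1 window held 4 cores and that of Fos 2, while those of Jun and Jund held none. The Jund window (chr8:70697489-70697738) does not adjoin the GENCODE start of Jund at 70698949, so the bases just before that start were not read. The windows of Atf3, Dusp1 and Nr4a1 lie within the GENCODE spans of these genes, at RefSeq starts downstream of the outermost GENCODE start. The bases just before those outermost starts were not read either. An EGR motif, GCGNGGGCG, was found in the windows of Fosb and Nr4a1, against 4.70% of all windows. The AP-1 motif TGANTCA (6.75% of all windows) and the CArG box of serum response factor (1.47%) were found in none of the 8 windows, and TATAAA (12.4%) in that of Fos alone. All motifs were read on both strands. These matches describe the letters of the windows and say nothing of binding, of sites farther upstream, or of Egr1 and Ier2.

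The libraries held 8194 (P) and 6975 (D) barcodes, of which 6818 and 4896 had over 800 genes and at most 12% mitochondrial UMIs and were kept. The kept cells had a median of 3405.5 and 3227.5 UMIs and of 1152 and 1346.5 genes. In all, 10 barcode sequences occurred in both libraries, 6 of them among kept cells. Krt5, a basal keratin of stratified epithelia, had a UMI in 98.9% (P) and 98.1% (D) of kept cells, and Epcam, a general epithelial marker, in 63.4% and 77.4%. Of the UMIs, 37.5% (P) and 21.4% (D) came from ribosomal protein genes. Over 8939 genes that had 100 UMIs or more in both libraries, the median log2 ratio of D over P was 0.42. Levels are given as counts per 1000000 UMIs of the kept cells (CPM), and each difference is also given relative to that median, called here the median-centred value.

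The immediate early genes were higher in D than in P organoids, apart from Fosb. Summed over the 10 genes, the level was 1406 CPM in P (37519 UMIs) and 2929 CPM in D (59476 UMIs), a log2 difference of 1.06 (1.04 to 1.08), or 0.64 median-centred. Of the 10 members, 6 were at least 2-fold higher in D, against 13.5% of the 10719 genes, and none was at least 2-fold higher in P, against 4.73% of genes. Median-centred, 5 members were at least 2-fold higher in D, against 5.64% of genes, and Ier2 fell below 2-fold. The median log2 ratio of the members was 1.34, beside 0.41 for all genes tested.

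**Figure D1:**
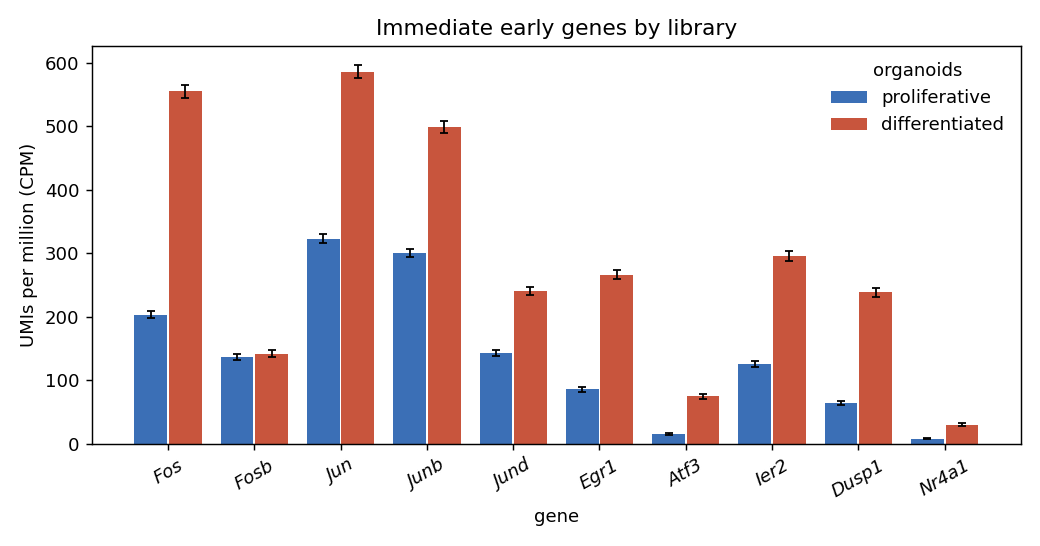
Level of each immediate early gene (x axis) in CPM (y axis) in the single P library (blue) and the single D library (red); bars give CPM of the summed kept cells and whiskers the 95% Poisson interval. Every gene stands higher in D apart from Fosb, at 137 CPM in P and 142 CPM in D with overlapping whiskers.

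Fos and Fosb, paralogous partners of Jun in AP-1, parted. Fos (ENSMUSG00000021250, chr12:85473890-85477273) was at 203 CPM (198 to 209) in P and 556 CPM (545 to 566) in D, a log2 difference of 1.45 (1.40 to 1.496). Its ratio exceeded that of 94.6% of the genes tested. Fosb (ENSMUSG00000003545, chr7:19302696-19310051) was at 137 CPM (132 to 141) in P and 142 CPM (137 to 147) in D, and the interval of its log2 difference, 0.06 (-0.02 to 0.13), includes 0. The sign of the Fosb difference turned to -0.37 when median-centred, while that of Fos stayed positive at 1.03.

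The 3 Jun family members differed less than Fos. Jun (ENSMUSG00000052684, chr4:95049034-95052222), the founding AP-1 partner, was at 323 CPM in P and 586 CPM in D, a log2 difference of 0.86 (0.82 to 0.90). Junb (ENSMUSG00000052837, chr8:84974484-84978718) was at 301 and 499 CPM, a log2 difference of 0.73 (0.69 to 0.77). Jund (ENSMUSG00000071076, chr8:70698949-70700616), the family member best known for steady expression in resting cells, was at 143 and 240 CPM, a log2 difference of 0.75 (0.69 to 0.81). The Junb and Jund intervals overlap each other, and the Jun interval lies above both. Median-centred, the log2 values were 0.44 for Jun, 0.31 for Junb and 0.33 for Jund, so none of the 3 reached 2-fold on either scale.

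Of the members outside the Fos and Jun families, Atf3, Nr4a1, Dusp1 and Egr1 differed more than Fos and Ier2 less. Atf3 (ENSMUSG00000026628, chr1:191170296-191218039), a stress-responsive member of the ATF family, had the largest log2 difference of the 10, from 15.6 CPM (417 UMIs) in P to 74.95 CPM (1522 UMIs) in D, or 2.26 (2.11 to 2.42). Nr4a1 (ENSMUSG00000023034, chr15:101254269-101274795) was sparse, with 215 UMIs (8.06 CPM) in P and 613 UMIs (30.2 CPM) in D, a log2 difference of 1.91 (1.68 to 2.14). Dusp1 (ENSMUSG00000024190, chr17:26505590-26562128) was at 64.7 CPM in P and 239 CPM in D, a log2 difference of 1.88 (1.80 to 1.961). The Nr4a1 and Dusp1 intervals overlap, and both genes stayed at least 2-fold higher in D when median-centred, at 1.48 and 1.46.

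Ier2 (ENSMUSG00000053560, chr8:84661331-84662852), a small nuclear protein of the early response, was at 125 CPM in P and 296 CPM in D, a log2 difference of 1.24 (1.18 to 1.30) and of 0.82 median-centred. Egr1 (ENSMUSG00000038418, chr18:34859823-34864984) was at 85.6 CPM (82.1 to 89.2) in P and 267 CPM (260 to 274) in D. Its log2 difference was 1.64 (1.57 to 1.71), above that of Fos with no overlap of intervals, and 1.22 median-centred.

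**Figure D2:**
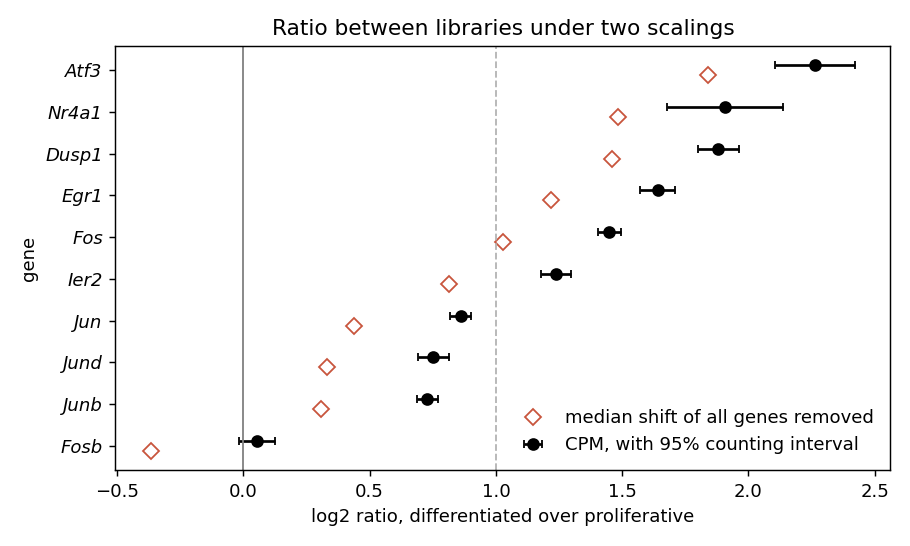
Log2 ratio of D over P for each gene (y axis), as CPM with its 95% counting interval (black circles) and with the median ratio of all genes removed (open red diamonds); the dashed line marks 2-fold. Fosb lies near 0 on the first scale and at -0.37 on the second, and the other 9 genes stay above 0 on both.

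The difference between the libraries was seen at each depth and each mitochondrial share. Cells were ordered by UMIs into 4 groups of equal size. From the shallowest to the deepest group, P cells held 1273, 1347, 1462 and 1452 CPM of the summed members and D cells 3513, 3077, 2746 and 2801 CPM. The level was thus lower in the shallow groups of P and higher in those of D, and the lowest D group lay above the highest P group. In cells with 0 to 4%, 4 to 8% and 8 to 12% mitochondrial UMIs the summed level was 1250, 1422 and 1498 CPM in P and 2686, 3007 and 2731 CPM in D. Malat1, a nuclear RNA that marks the nuclear share of a library, was at 46125 CPM in P and 58208 CPM in D, and its part in the difference was not tested. The lists of other cell types were low in both libraries. The summed level of 6 fibroblast markers was 1.99 CPM in P and 62.5 CPM in D, and that of 5 smooth muscle markers 1.42 and 43.1 CPM. That of 6 leukocyte markers was 0.56 and 19.9 CPM, that of 5 endothelial markers 5.17 and 3.35 CPM, and all 4 erythroid markers were at 0 UMIs. In D only 1 fibroblast, 2 smooth muscle and 1 leukocyte marker reached 20 UMIs. The leukocyte marker was Laptm5, which was among the leading genes of the largest D cluster described below (2180 cells). The part of cells of these other types in the difference was not tested. Transcripts made during dissociation and transcripts made in the organoids cannot be told apart in these libraries, and the dissociation time of these libraries is not given in the sources used here.

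The kept cells of each library were clustered without 61 early-response genes, the 10 members among them, so that these genes did not shape the clusters. P cells fell into 4 clusters led by Nbl1, Dlk2, Gm4610, Htra1 and Pltp (2609 cells), by Psca, Nccrp1, AA467197, Krt6b and Mal (2569 cells), by Fmo2, Slc7a11, Jag1, Ifitm1 and Slc1a5 (1284 cells), and by Neil3, Ska1, Ccna2, Hmmr and Nusap1 (356 cells). The last was proliferating-like, with all 12 proliferation markers raised. D cells fell into 4 clusters led by Cyp2f2, Lgals4, Tspan1, Prss32 and Cmbl (2180 cells), by Acta2, Htra1, Tns1, Sparc and Smoc2 (1223 cells), by Krt1, Bbox1, S100g, Dapl1 and Krt10 (790 cells), and by Krt23, Ppbp, Upk3a, Sftpd and Upk3b (703 cells). The last was luminal-like, with all 5 detected markers of the luminal list, uroplakins among them, raised. The other clusters are called here by their first gene. In the Acta2 cluster 6 of 7 basal markers were raised, in the Krt1 cluster 7 of 7 and in the Nbl1 cluster 5 of 7. The Acta2 cluster also had 11 of 11 detected proliferation markers raised. Of the 5 smooth muscle markers only 2 were detected in D, Acta2 (837 UMIs) and Tagln (35 UMIs). Both were raised in the Acta2 cluster, where the list summed to 202 CPM. Of the 6 fibroblast markers only 1 was detected in D, and it was raised there, with a list sum of 233.5 CPM. The Krt1 cluster had 4 of 7 squamous markers raised, with Krt1 and Krt10 among its leading genes. The proliferation markers summed to 151 CPM in the Acta2 cluster, against 3418 CPM in the proliferating-like cluster of P. The squamous markers summed to 775 CPM in the Krt1 cluster and to a like level, 771 CPM, in the luminal-like cluster.

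Within D the members were highest in the Krt1 cluster and lowest in the luminal-like cluster. Their summed level was 4088 CPM (4009 to 4169) in the Krt1 cluster, 3246 CPM in the Cyp2f2 cluster, 2425 CPM in the Acta2 cluster and 1702 CPM (1659 to 1746) in the luminal-like cluster, and no neighbours in this order had overlapping intervals. Within P the range was narrower, with 1577 CPM in the Fmo2 cluster, 1558 CPM in the Psca cluster, 1130 CPM in the Nbl1 cluster and 1101 CPM in the proliferating-like cluster. The first pair and the last pair of P clusters overlapped. On the CPM scale each D cluster lay above each P cluster, but median-centred the luminal-like D cluster stood at 1270 CPM, below the Fmo2 and Psca clusters of P. Cluster membership held 11.3% of the variance of the summed thinned counts, taken on the log scale, over D cells and 3.42% over P cells.

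**Figure D3:**
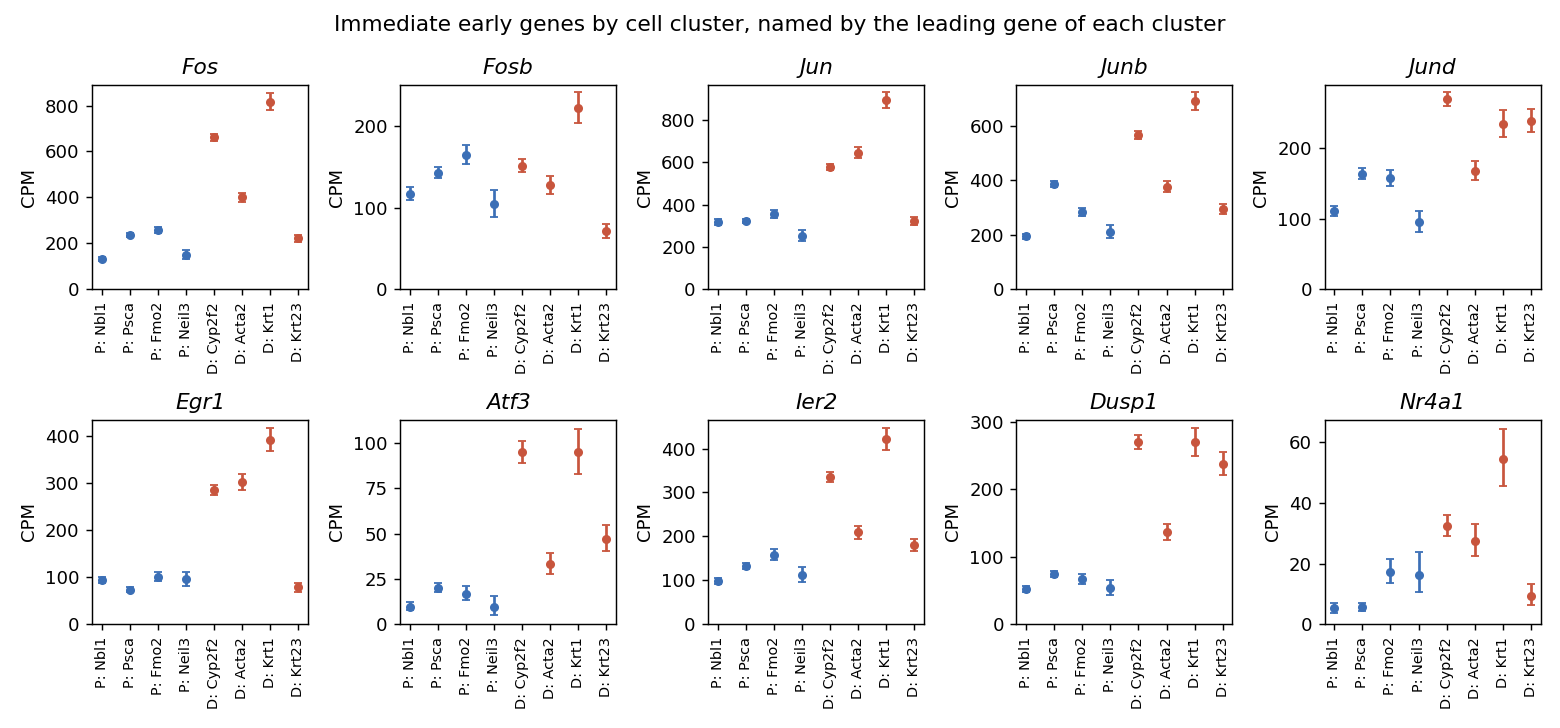
Level in CPM (y axis) of each of the 10 genes in the 4 P clusters (blue) and 4 D clusters (red), each named by its first leading gene (x axis); points are summed cells and whiskers 95% Poisson intervals. Fos, Fosb, Jun, Junb, Egr1, Ier2 and Nr4a1 are lowest of the D clusters in the luminal-like Krt23 cluster, while Jund, Atf3 and Dusp1 are lowest in the Acta2 cluster.

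Fos, Fosb, Junb, Ier2 and Nr4a1 shared 1 order over the D clusters, Jun and Egr1 another. Fos was at 817 CPM in the Krt1 cluster, 661 in the Cyp2f2 cluster, 401 in the Acta2 cluster and 222 in the luminal-like cluster. Egr1 was at 393 CPM in the Krt1 cluster, 302 in the Acta2 cluster, 286 in the Cyp2f2 cluster and 78.1 CPM in the luminal-like cluster, a level within the range of the P clusters (73.6 to 100.5 CPM). Fosb, at 71.2 CPM in the luminal-like cluster, was there below each of its P cluster levels (104 to 165 CPM) and reached 222 CPM in the Krt1 cluster. Its levels in the Cyp2f2 (152 CPM) and Acta2 (127.5 CPM) clusters lay within the range of the P clusters. These placements of Egr1 and Fosb beside the P clusters are on the CPM scale. Median-centring lowers every D level. On that scale Egr1 in the luminal-like cluster and Fosb in the Acta2 cluster fall below all of their P cluster levels. Fosb keeps its placement in the luminal-like and Cyp2f2 clusters.

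Dusp1 and Atf3 shared a different order, and Jund had its own. Dusp1 was at 269 CPM in both the Cyp2f2 and the Krt1 cluster, 238 CPM in the luminal-like cluster and 136 CPM in the Acta2 cluster. Jund was at 269 CPM in the Cyp2f2 cluster, 239 in the luminal-like, 235 in the Krt1 and 168 in the Acta2 cluster. Atf3 was at 94.9 CPM in the Cyp2f2 and 94.8 in the Krt1 cluster, 47.2 in the luminal-like and 33.0 in the Acta2 cluster. All 3 had their lowest D level in the Acta2 cluster rather than in the luminal-like cluster, and the Jund intervals of the luminal-like and Krt1 clusters overlapped.

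The remaining members followed the order of Fos or that of Egr1. Jun was at 893 CPM in the Krt1, 645 in the Acta2, 579 in the Cyp2f2 and 323 in the luminal-like cluster. Junb was at 689 CPM in the Krt1, 566 in the Cyp2f2, 376 in the Acta2 and 295 in the luminal-like cluster. Ier2 and Nr4a1 ran from 422 and 54.5 CPM in the Krt1 cluster to 180 and 9.26 CPM in the luminal-like cluster. Jun and Egr1 were alike in standing higher in the Acta2 than in the Cyp2f2 cluster, with overlapping intervals for Egr1 and not for Jun.

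The Krt1 and luminal-like clusters were set against each other after their levels were seen, as a description. From the second to the first, 8 of 10 members were at least 2-fold higher, against 4.05% of the 6105 genes with at least 100 UMIs over the 2 clusters. The log2 differences ran from 2.56 (1.99 to 3.16) for Nr4a1, 2.33 for Egr1 and 1.88 for Fos down to 0.18 (0.03 to 0.33) for Dusp1 and -0.03 (-0.18 to 0.13) for Jund. The luminal-like cells were deeper, with a median of 4137 UMIs against 2716.5 in the Krt1 cluster, and the log2 difference of the summed members was 1.26 before and 1.27 after thinning all cells to 2100 UMIs. It was 0.71 at resolution 0.4, where the matched clusters were larger, at 861 cells (high) and 1079 cells (low) against 790 and 703. With the early-response genes allowed among the clustering features it was 0.94.

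In P the Fmo2 and Nbl1 clusters were set against each other, also after their levels were seen and as a description. The proliferating-like cluster, the smallest at 356 cells, had the lowest summed level of P but was not used here. It stood at 1101 CPM against 1130 CPM in the Nbl1 cluster, with overlapping intervals. The log2 differences of the members, Fmo2 over Nbl1, ran down to 0.164 (0.073 to 0.255) for Jun and 0.10 (-0.07 to 0.27) for Egr1. The median over the genes tested was -0.095. Only Nr4a1, at 1.74 (1.18 to 2.33) from 79 and 41 UMIs, passed 2-fold, beside 2.15% of 7564 genes. Fos was next, at 258 CPM against 133 CPM. Junb, Jund, Atf3 and Dusp1 were highest in the Psca cluster, where 9 of 9 intermediate, 8 of 9 squamous and 3 of 3 detected luminal markers were raised, with Junb at 387 CPM there and 194 CPM in the Nbl1 cluster. Egr1 was lowest in that same cluster, at 73.6 CPM (68.9 to 78.5), and Dusp1 ran only from 51.6 to 74.0 CPM over the P clusters.

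To compare the spread over cells at 1 depth, each cell was thinned to 2100 UMIs, which left 6638 P and 4417 D cells and dropped 180 and 479 shallower cells. Fos had at least 1 UMI in 27.7% (26.6 to 28.8) of P cells and 54.0% (52.6 to 55.5) of D cells, and Jun in 42.02% and 62.5%. Before thinning these shares were 39.3% and 65.8% for Fos and 55.3% and 76.0% for Jun. Egr1 was detected in 14.9% of P and 35.1% of D cells, Dusp1 in 11.1% and 33.6%, and Ier2 in 22.5% and 44.3%. Fosb was detected in 22.0% (20.97 to 23.0) and 24.5% (23.2 to 25.8), the smallest difference of the 10. Junb was detected in 41.3% and 58.3%, Jund in 23.7% and 38.2%, Atf3 in 3.04% and 12.1%, and Nr4a1 in 1.67% and 5.80%. No cell type that should lack these genes was at hand, so the share that free RNA gives was not tested.

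A D cell held a mean of 6.29 member UMIs (SD 4.52, median 5, 90th percentile 12, maximum 33) and a P cell 2.91 (SD 2.54, median 2, 90th percentile 6, maximum 20). No member UMI was found in 1003 P cells (15.1%) and 216 D cells (4.89%). The top 10% of cells held 29.0% of the member UMIs in P and 24.8% in D. The distributions overlapped widely, with a 75th percentile of 4 member UMIs in P and a 25th percentile of 3 in D.

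**Figure D4:**
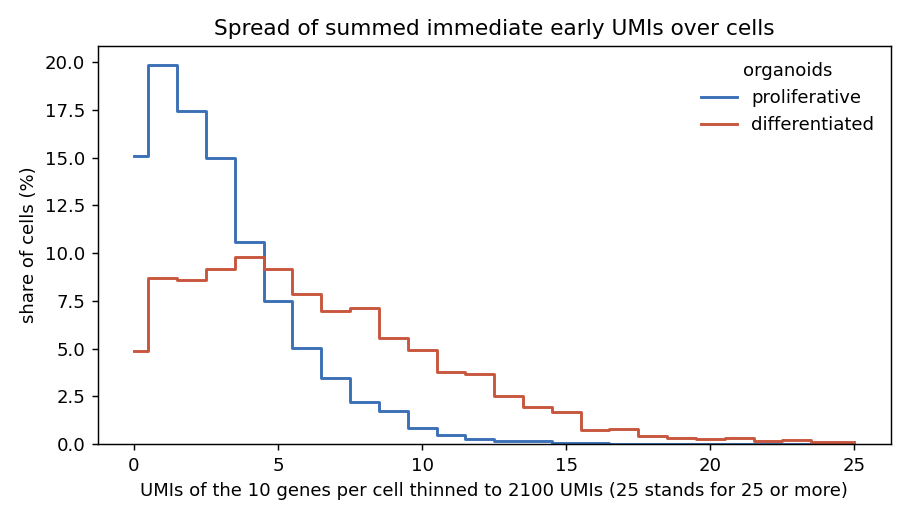
Share of cells (y axis, %) by the number of UMIs of the 10 genes in a cell thinned to 2100 UMIs (x axis; the last bin holds cells with 25 or more), for P (blue) and D (red). The P curve is centred on a median of 2 UMIs and the D curve on a median of 5, with wide overlap.

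Cells also differed in how many members they showed. The median was 2 of the 10 genes in P and 4 in D, and at least 5 were found in 7.35% of P and 34.98% of D cells. A UMI of Fos or Fosb together with a UMI of Jun, Junb or Jund, which encode the 2 sides of AP-1, was found in 31.9% of P and 56.9% of D cells. Among cells with a Fos family UMI, 80.1% (P) and 93.0% (D) had a Jun family UMI, against 65.0% and 78.5% of cells without one.

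The variance over mean of single members ran from 1.08 to 1.63 in P and from 1.13 to 1.95 in D, where 1 is the value of pure counting noise, and the median gene between the lowest and the highest member mean stood at 1.02 in both libraries. In each library 8 of 10 members lay above the 95th percentile of those genes (1.14 in P, 1.21 in D), which span the whole range of means and were not matched to single members. For the summed members the value was 2.22 in P and 3.26 in D.

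Members varied together weakly from cell to cell, which is given as a description over cells of 1 library each. Over the 45 pairs, the median correlation of log thinned counts was 0.06 in P (6638 cells) and 0.12 in D (4417 cells). The highest pairs were Fos with Fosb in P (0.24) and Fos with Egr1 in D (0.27). With the sum of the other members, Fos reached 0.44 and Egr1 0.36 in D, and Nr4a1 0.04 in P. Within clusters the medians were 0.06 and 0.10. The summed members correlated with the mitochondrial share at 0.06 in P and -0.02 in D, and with the depth before thinning at 0.08 and -0.05.

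By the lower of both libraries' correlations with the summed members, the 10 most alike of 4318 other genes were Hes1, Btg1, Tpt1, Pdcd4, Klf6, Ddx5, Klf4, Zfp36, 4833423E24Rik and Hbegf. Hes1, a Notch target and transcriptional repressor, led with correlations of 0.19 (P) and 0.26 (D), and its level was 716 CPM in P and 1209 CPM in D. Klf4 (144 CPM in P, 59.9 CPM in D) and Btg1 (1881 and 1537 CPM) were alike over cells yet lower in D, while Klf6 (93.2 and 207 CPM) and Zfp36 (41.5 and 107 CPM) were higher in D. The genes most alike over cells thus had ratios on both sides of 0. The lowest correlations were those of AY036118 (-0.20 in P, -0.24 in D) and Gm42418 (-0.17 and -0.24), named after their values were seen, which stood at 624 and 4825 CPM in P and 578 and 4518 CPM in D.

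Related genes did not share 1 direction. The median log2 ratio of D over P was 0.39 across the 12904 genes whose summed count reached 20 UMIs, the minimum used for the lists. Of these genes 15.5% passed 2-fold towards D and 6.89% towards P, or 7.67% and 11.5% median-centred, which are the shares to read beside each list count. The list of other immediate early transcription factors (20 of 22 with enough UMIs) had a median of 0.20, of which 4 passed 2-fold towards D and 3 towards P, or 2 and 5 median-centred. Egr3, a paralog of Egr1, had 11 UMIs in P and 53 in D (log2 2.66), Sox9 stood at 22.0 CPM in P and 73.3 CPM in D (1.73), Nr4a2 at 4.69 and 11.7 CPM (1.32) and Klf6 at 1.15. Maff, a small MAF protein, stood at 23.9 CPM in P and 6.55 CPM in D (-1.87), Myc at 30.02 and 11.03 CPM (-1.44) and Klf4 at -1.27. Median-centred, the list median was -0.22.

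The list of early-response RNA-binding, feedback and signalling genes (29 of 29) had a median of 0.67, or 0.25 median-centred, 8 of its members passing 2-fold towards D (5 median-centred), and Socs3 (9.71 CPM in P, 4.04 CPM in D) passing it towards P. Ctgf and Cyr61, matricellular targets of YAP and serum response factor, led with log2 values of 3.95 (2.36 and 36.5 CPM) and 2.86 (6.86 and 49.8 CPM). Sgk1, a kinase induced by serum and glucocorticoids, was at 55.1 and 295 CPM (2.42) and Ptgs2, the inducible cyclooxygenase, at 3.94 and 21.03 CPM (2.42). Btg2 (1.61), Zfp36 (1.37), Ier5 (1.11) and Plk2 (1.03) were the others.

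The ERK feedback genes, negative regulators and ETS targets of the ERK pathway, had a median log2 ratio below 0. It was -0.89 over 12 of 13 genes, or -1.31 median-centred, with 5 genes past 2-fold towards P (8 median-centred) and none towards D. Dusp6, the ERK phosphatase, stood at 19.7 CPM in P and 6.65 CPM in D (-1.57), Spry1 at 4.57 and 1.77 CPM (-1.37) and Spred3 at 4.91 and 1.03 CPM (-2.25). Etv4 had 53 UMIs in P and 1 in D (log2 -5.33, -10.7 to -2.79) and Etv5 28 and 2 (-3.41, -6.53 to -1.43), counts too low for a narrow ratio. The other 7 lay within 2-fold, and 3 of them were above 0, namely Phlda1 (0.89), Errfi1 (0.68) and Dusp5 (0.14). Dusp1 and Dusp6, both MAP kinase phosphatases, thus differed in opposite directions between the libraries, with log2 values of 1.88 and -1.57. Over the other dual specificity phosphatases (9 of 10) the median was 0.16, with Dusp8 (3 and 25 UMIs) and Dusp16 (15.4 and 40.3 CPM) at least 2-fold higher in D and Dusp6 in P (1 and 2 genes median-centred), and the sign of that median turned to -0.26 when median-centred.

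Among the AP-1 partners (12 of 14, median 0.30, or -0.12 median-centred) Jdp2, a repressor that pairs with Jun, was at 10.2 CPM in P and 40.6 CPM in D (1.99), Maff was lower in D as above, and the other 10 lay within 2-fold, while median-centred 1 passed towards D and 2 towards P. The EGF receptor ligands and receptors (9 of 9) had a median of 0.52, or 0.10 median-centred, none passed 2-fold, and the range ran from Egfr at 0.16 to Hbegf at 0.88. The upstream kinases and factors (15 of 17 listed) had a median of 0.74, or 0.32 median-centred, with Srf (6.18 and 13.1 CPM, 1.08) and Elk4 (1.01) just past 2-fold on the CPM scale while median-centred none passed it towards D and Map2k1 (-1.02) did towards P. The stress chaperones (11 of 11) had a median of 0.71, or 0.29 median-centred, with Hsph1 (1.74), Dnaja1 (1.33) and Dnajb1 (1.07) at least 2-fold higher in D, of which Hsph1 alone stayed so when median-centred, and Hspe1 lowest at -0.47. Hspa8, the constitutive chaperone of that list, correlated negatively with the summed members over cells (-0.16 in P, -0.13 in D).

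The SRF and actin genes (11 of 12) had a median of 1.45, or 1.03 median-centred, with 6 at least 2-fold higher in D and none in P on either scale. Actb was at 646 CPM in P and 1764 CPM in D (1.45), Tpm1 at 203 and 586 CPM (1.53) and Flna at 38.3 and 129 CPM (1.75). Acta2 (28 and 837 UMIs, 5.30) and Tagln (8 and 35 UMIs, 2.52) are also smooth muscle markers, and Myl9 had 0 UMIs in P and 92 in D. Their summed level was 8065 CPM in the Acta2 cluster of D and 3826 CPM in its Cyp2f2 cluster, an order unlike that of the summed immediate early genes, which stood at 2425 and 3246 CPM there. The ERK feedback genes other than Phlda1 summed to 133 CPM in the Acta2 cluster and 69.1 CPM in the luminal-like cluster of D, beside 108 to 153 CPM over the P clusters. Phlda1, left out of these sums, stood alone at 190.5 CPM in P and 353 CPM in D, and its level by cluster is not given.

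**Figure D5:**
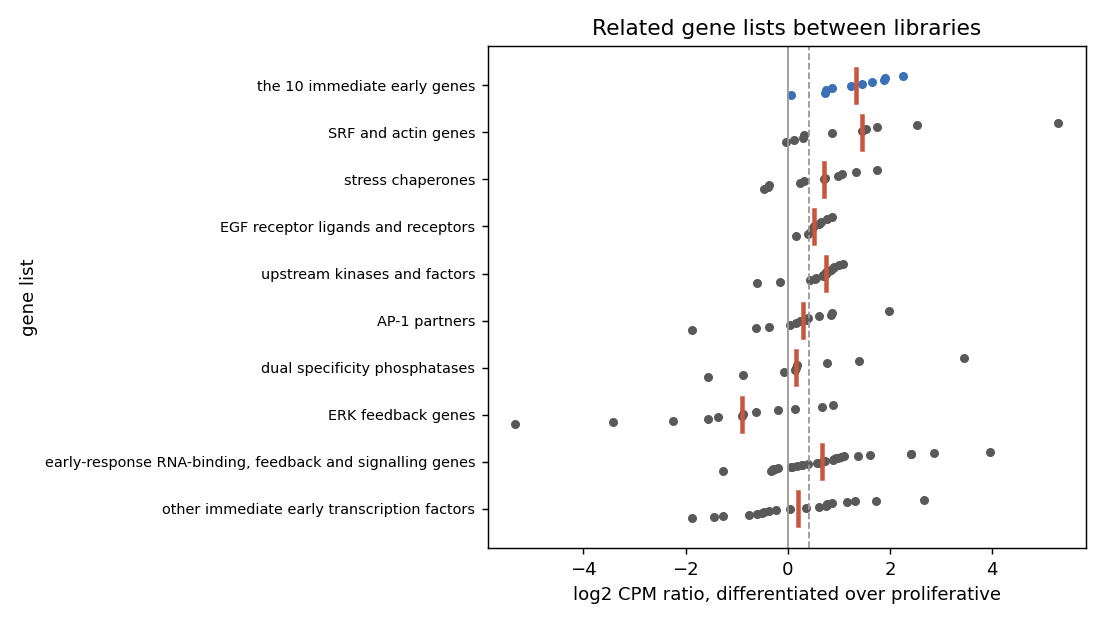
Log2 CPM ratio of D over P (x axis) of the genes of each list (y axis), with 1 point a gene whose summed count reached 20 UMIs and that had a UMI in each library; red bars are list medians, the solid line marks 0 and the dashed line the median shift of all genes (0.42). The ERK feedback genes lie mostly left of 0, with a median of -0.89, and the 10 immediate early genes lie right of it, with a median of 1.34.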

How the data were processed

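The authors deposited raw UMI counts for each gene and cell barcode of 2 single-cell libraries, 1 of P and 1 of D organoids. Per the submitters' processing notes and the study's methods, reads were processed with bcl2fastq 2.19.0 and Cell Ranger 3.0.2 against GRCm38 (mm10), and barcodes were called as cells but not filtered. Capture at the 3′ end means that UMIs count molecules, not transcript length.

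Barcodes with over 800 genes and at most 12% mitochondrial UMIs were kept. In P, 8 more barcodes had exactly 800 genes. Counts of the kept cells were summed to 26681469 (P) and 20305621 (D) UMIs. CPM carry exact Poisson intervals, ratios exact conditional binomial intervals and shares exact Clopper-Pearson intervals, all at 95% and for counting error only. The ratio and thinning code recovered known answers on simulated data. Cells were clustered per library with Seurat 5.3.0 (R 4.3.3; 2000 variable features less the early-response genes, resolution 0.2, and 25 components for P or 21 for D). Clusters are rebuilt and may differ from those of the study. Leading genes had the largest fold over the other cells of the library among genes in at least 10% of a cluster's cells, and the first 5 are named. Doublets were kept, since the automatic threshold of the doublet score (scanpy 1.11.5, Scrublet) called 0 cells in either library and so had not worked. An alternative left out the highest scores, at 0.8% of cells per 1000 barcodes (447 P and 273 D cells). From the gene lists, members at least 2-fold different and those with the highest and lowest ratios were named. The members and lists were chosen with earlier results of these data known. Gene positions are from GENCODE for GRCm38, and promoter sequences from RefSeq.

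Mrtfa and Mrtfb of the upstream list are in the matrices under the names Mkl1 and Mkl2.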

Additional observations from a re-analysis of the deposited data

Results flagged for a closer look

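Barcodes outside the cell filter also held immediate early transcripts. Scaled per 1000000 non-mitochondrial UMIs, the summed members stood at 1400.6 (1349 to 1454) in 1376 P barcodes outside the filter, against 1495 in the kept P cells, and at 3628.0 (3546 to 3711) in 2079 such D barcodes, against 3154 in the kept D cells. They were singled out because the left-out barcodes enter no comparison of the report and hold a signal above the limit of a count of 0. Most left-out D barcodes, 1906, had over 12% mitochondrial UMIs, and in P 476 did. On that scale the left-out D barcodes held more Nr4a1 (98.5 against 32.5 in kept cells) and Fosb (341 against 153) and less Fos (516 against 598) and Jund (203 against 259). In the left-out P barcodes Nr4a1 stood at 11.04 against 8.56 and Fosb at 150 against 145.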

How the results depend on the processing

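No paired analysis was possible because each condition has 1 library, and no replicate could be left out. The log2 ratio of the summed members, 1.06, was 0.72 without mitochondrial and ribosomal protein genes, 0.64 with median ratio scaling, 1.01 with the stricter cell filter, 1.11 without the highest 5% of cells and 1.14 as a mean over cells; the cause of the last 3 was not tested. It moved by less than its counting interval with the looser filter, with all deposited barcodes and without the cells of highest doublet score. Fosb turned negative under both other scalings and ran from -0.37 to 0.20 over 9 settings, in which the other 9 members stayed positive. Genes at least 2-fold higher in D numbered 1442, or 692 and 605 without mitochondrial and ribosomal protein genes and with median ratio scaling, and 1999 with a minimum of 20 UMIs. Those higher in P numbered 507, or 757, 927 and 889 in the same order.

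The log2 ratio of the summed members between the Fmo2 and Nbl1 clusters of P, 0.48, was 0.34 at resolution 0.4 and 0.53 without doublets. Between the Krt1 and luminal-like clusters of D it was 1.26, and 0.94 with early-response genes among the features, where the Krt1 cells joined a cluster of 2736 cells. It was 0.71 at resolution 0.4, where the low cluster grew to 1079 cells, and 1.35 without doublets. Unthinned, 92.2% of P and 97.6% of D cells held a member UMI, with a variance over mean of 5.06 and 11.4. At least 2 UMIs were held by 65.0% and 86.4%.

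List medians without mitochondrial and ribosomal protein genes and with median ratio scaling were, in this order, -0.13 and -0.22 for the other immediate early factors, 0.33 and 0.25 for the RNA-binding, feedback and signalling genes, -1.22 and -1.31 for the ERK feedback genes, -0.17 and -0.26 for the phosphatases, and -0.038 and -0.12 for the AP-1 partners. They were 0.41 and 0.32 for the upstream kinases and factors, 0.18 and 0.10 for the EGF receptor list, 0.38 and 0.29 for the chaperones, and 1.11 and 1.03 for the SRF and actin genes. The scaling itself moves every ratio by the same amount. The sparse members, Nr4a1 and Atf3, were limited by depth, with 215 and 417 UMIs in P.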
